A study of Mus musculus with 6 samples.

Results

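The genes described here encode the Wnt ligands, their receptors and their antagonists, together with nearby regulators and the transcription factors of the pathway. They were chosen by symbol, as all listed members of the Wnt, Frizzled (Fzd), secreted Frizzled-related (Sfrp), Dickkopf (Dkk), R-spondin (Rspo), Naked cuticle (Nkd) and TCF/LEF families, with Lrp5, Lrp6, Lgr4, Lgr5, Lgr6, Axin1, Axin2, Rnf43, Znrf3 and Ror1. The rule found 53 of the 18512 entries of the count table, and the 34 genes with a mean raw count of at least 20 over the 6 libraries were quantified. Just below that minimum lay Wnt10a with a mean raw count of 17, Wnt6 with 14 and Wnt5b with 12.3, and just above it Lgr5 with 25, Nkd2 with 28 and Sfrp1 with 29.

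The cells were NMuMG, a line of mouse mammary gland epithelium that undergoes an epithelial-mesenchymal transition in TGF-β. Gene expression was measured by RNA-seq in 3 groups of 2 replicates each: cells with the vehicle DMSO, cells with TGF-β at 5 ng/ml, and cells with the same dose of TGF-β plus 2APB at 50 μM. 2APB is a modulator of store-operated calcium entry, and the comparisons ask how gene expression responds to TGF-β and whether that response differs when calcium entry is perturbed. RNA was taken at 24 h. The sources differ on whether 2APB was given with TGF-β or a day ahead of it, which could not be settled, and cells with 2APB alone were not analysed here.

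Wnt proteins are lipid-modified secreted ligands that bind Frizzled receptors with the co-receptors LRP5 or LRP6, upon which β-catenin escapes destruction and activates target genes with TCF/LEF factors. R-spondins bind LGR receptors and draw away the ubiquitin ligases ZNRF3 and RNF43, which otherwise clear Frizzled from the cell surface, while Dickkopf and SFRP proteins act as antagonists outside the cell. In the mammary gland Wnt signalling is known for its part in stem cells and duct branching, and some ligands act through other receptors without β-catenin.

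Between 71840570 and 79473182 counts were assigned to genes per library, of which the 53 genes took 0.129% to 0.151%. Counts were scaled between libraries by TMM factors and are given as normalized counts at the mean library size. The test was the quasi-likelihood F-test of edgeR, run on 13353 genes in 1 model of all 6 libraries, and a gene was called at a Benjamini-Hochberg FDR of 0.05 or less over those genes. SE stands for the standard error of a log2 fold change. All deposited values were even, so the smallest count above 0 was 2, and counts this low carry large counting error. In RNA from whole cultures, fewer cells of a kind and less RNA per cell cannot be told apart.

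The epithelial label was checked against its markers, of which 6 of 7 were in the table. Krt8, a keratin of simple epithelia, had 252654 and 234425 normalized counts in DMSO, 413159 and 355554 in TGF-β and 729306 and 700430 in TGF-β+2APB. Cdh1, which encodes E-cadherin, had 91180 and 90601 in DMSO, 58611 and 47241 in TGF-β and 35058 and 41060 in TGF-β+2APB. Krt8, Krt18 and Cdh1 were abundant in every library, and the other 3 markers were not uniform. Krt19 had 45112 and 42139 in DMSO, 12510 and 8776 in TGF-β and 1687 and 3441 in TGF-β+2APB. Cldn4 had 1.97 and 6.20 in DMSO, 713 and 743 in TGF-β and 2087 and 1529 in TGF-β+2APB. Epcam had 50.6 to 163 over the 6 libraries. The label thus rests on Krt8, Krt18 and Cdh1, and not on every marker of the list. Of the 6 mesenchymal markers, 5 were higher in TGF-β than in DMSO by the edgeR test described above and 6 in TGF-β+2APB, where 21.8% and 25.6% of all tested genes were higher. Pdgfrb, one of them, passed the minimum only through treated libraries, so it adds no support to these counts. Col1a1 had 51.1 and 74.4 in DMSO, 1625 and 1724 in TGF-β and 2154 and 1645 in TGF-β+2APB. By contrast, the basal mammary markers Krt5, Krt14 and Trp63 summed to 2.08 to 7.86 normalized counts per library and the 4 endothelial markers to 9.83 to 49.3. The 3 milk protein genes on the list of secretory mammary markers were absent from the table, and the other 3 genes of that list, led by Prlr or Elf5, summed to 5.84 to 41.3. Of the adipocyte markers, Adipoq stayed at or below 2.07 in every library, whereas Cidec had 143 and 163 in DMSO and 7.89 or fewer elsewhere.

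The TGF-β+2APB replicates stood furthest apart. The SD of the log2 difference between replicates over all tested genes was 0.73 in that group, against 0.30 in DMSO and 0.53 in TGF-β. Leukocyte markers also differed there. The 5 of 6 listed leukocyte genes in the table summed to 2397 normalized counts in TGF-β+2APB replicate 2, led by Csf1r at 969, against 352 in replicate 1 and 264 to 635 in the other libraries. Cd3e, the T cell marker among them, was at 0 in all libraries but that one, where it had 1.97. None of the 4 tested leukocyte markers was called in any comparison by edgeR (at an unadjusted p under 0.05, 0 for TGF-β against DMSO and 1 in each of the other comparisons). DESeq2 called 0 for TGF-β against DMSO and 1 in each of the others. Without TGF-β+2APB replicate 2, fewer Wnt genes were called in each comparison. The same held without TGF-β+2APB replicate 1, where the leukocyte genes summed to 352.

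In TGF-β, 25 of the 34 quantified genes were called against DMSO, 19 higher and 6 lower. Of all tested genes, 41.5% were called in that comparison, 21.8% higher and 19.7% lower. The median log2 fold change of the 34 genes was 0.61, against -0.01 over all tested genes. TGF-β+2APB against DMSO called 27 genes, 19 higher and 8 lower, where 52.8% of all tested genes were called, 25.6% higher and 27.2% lower. The median was 0.76, against -0.003 over all genes. Between the treated groups, 12 genes differed, 7 higher in TGF-β+2APB and 5 lower, where 17.5% of all genes were called, 6.58% higher and 10.9% lower. Its median was 0.07, against -0.004. With Wnt1, which was at 0 in DMSO, set to its lower bound, all 3 medians of the Wnt genes were the same.

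These counts are a description of the genes that passed the minimum. Wnt1, Wnt11, Lef1, Fzd9 and Lgr5 had a mean below 20 in DMSO and passed only through treated libraries. Each of them had to have a treated group above DMSO to pass (for Lgr5, which was not called, TGF-β), so the counts are no support for a shift of the family. Sfrp1 had a mean raw count of 39 in DMSO, 38 in TGF-β and 10 in TGF-β+2APB. It passed only through the groups where it was high, so its calls as lower add no support to the counts either. The comparisons with DMSO share the DMSO libraries. The genes fell into a few patterns over the 3 comparisons. Wnt1, Wnt7a, Wnt7b, Wnt9a, Fzd2 and Tcf7 were higher in TGF-β than in DMSO and higher again in TGF-β+2APB than in TGF-β, and Wnt4, Fzd5, Lgr4 and Tcf7l2 were lower in the same order. A further 12 genes, among them Wnt11, Lef1 and Fzd9, were higher in both treated groups than in DMSO and not called between the treated groups. The share of all tested genes with each pattern was not counted, so the patterns are a description only. The calls held under all 15 alternative settings for 17 of the 25 genes in TGF-β, 21 of the 27 in TGF-β+2APB and 4 of the 12 between the treated groups, which were Wnt9a, Wnt7a, Lgr4 and Tcf7l2. Without DMSO replicate 1 or 2, the 12 genes called between the treated groups became 6 in each case. A library left out takes a degree of freedom from the test and is also missing from its estimate of the spread. A call between the treated groups can end without a DMSO library while its log2 fold change is the same, and the cause was not tested. Among the 34 genes, leaving out 1 library moved a called fold change by over 1.5 times only for Lef1 and Sfrp1.

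**Figure D1:**
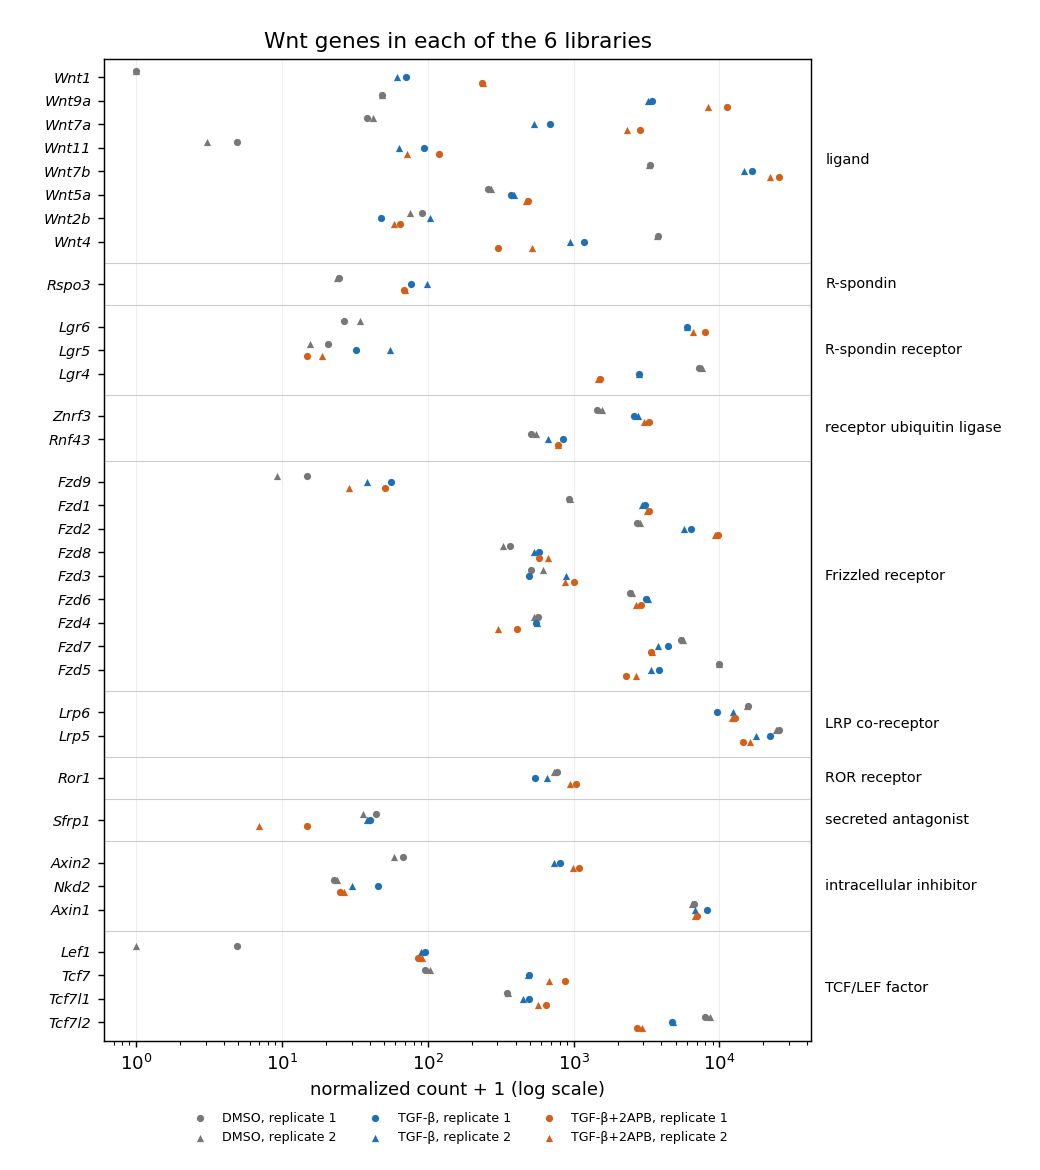
Normalized counts plus 1 on a log scale (x axis) of the 34 quantified Wnt genes (rows, grouped by role) in each of the 6 libraries, with DMSO in grey, TGF-β in blue and TGF-β+2APB in orange, replicate 1 as circles and replicate 2 as triangles. Wnt9a is lowest in DMSO and highest in TGF-β+2APB, while Wnt4 lies in the reverse order.

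**Figure D2:**
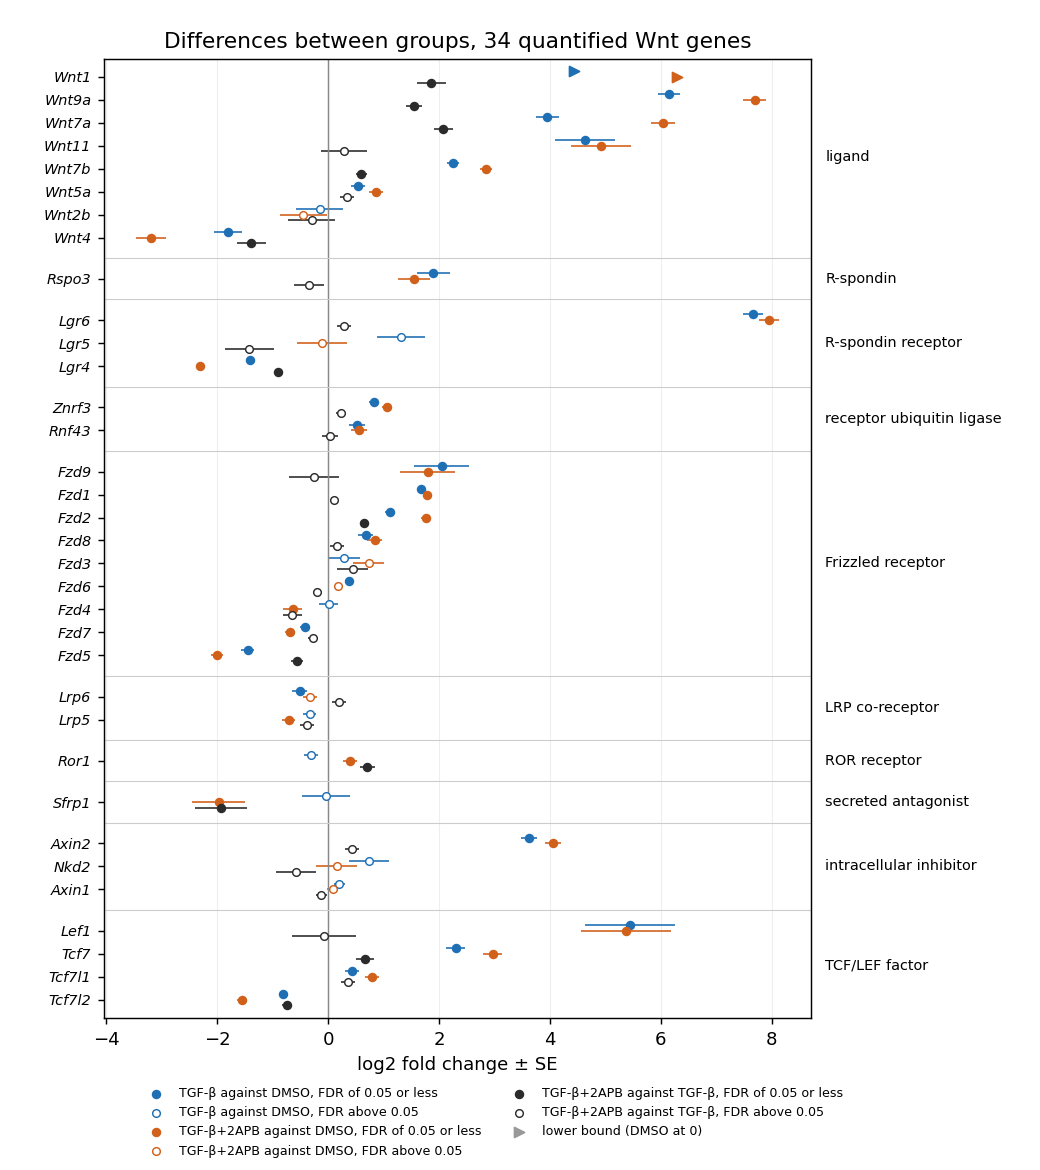
Log2 fold changes with their SE (x axis) of the same 34 genes for TGF-β against DMSO (blue), TGF-β+2APB against DMSO (orange) and TGF-β+2APB against TGF-β (black), filled where the edgeR FDR was 0.05 or less and open where it was above. Triangles mark the lower bounds of Wnt1 for the counts as deposited, as it had no counts in DMSO, and the ligands Wnt9a and Wnt7a and the receptor Lgr6 lie far to the right.

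Ligands changed both in amount and in which of them prevailed. Of the 18 ligand genes, 8 were quantified, and 7 were called in each comparison with DMSO, 6 higher and 1 lower. Between TGF-β+2APB and TGF-β, 5 were called, 4 higher and 1 lower. Of all tested genes, 41.5%, 52.8% and 17.5% were called in these comparisons, and Wnt1 and Wnt11 passed the minimum only through treated libraries, so they add no support to the counts. Per kb of exon, the normalized counts of all 18 ligands summed to 1685 and 1676 in DMSO, 5089 and 4505 in TGF-β and 9787 and 8138 in TGF-β+2APB. The sum was lowest in the DMSO libraries and highest in the TGF-β+2APB libraries, with no overlap between groups. On this scale Wnt4 made up 53.2% and 52.8% of the sum in DMSO and Wnt7b 40.2% and 40.3%. In TGF-β, Wnt7b made up 67.1% and 66.9% and Wnt9a 20.5% and 21.5%. In TGF-β+2APB, Wnt7b made up 53.0% and 55.9%, Wnt9a 34.6% and 30.9% and Wnt7a 9.22% and 8.93%. Wnt4 had dropped to 0.733% and 1.51% there.

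Wnt9a, a ligand known from joint and liver development, had 47.2 and 47.5 normalized counts in DMSO, 3471 and 3231 in TGF-β and 11281 and 8383 in TGF-β+2APB. The 3 groups were far apart, and the spread between replicates was small beside the steps between them. In log2 terms, the change against DMSO was 6.14 (SE 0.20, edgeR FDR 4.05e-05) in TGF-β, a 70.6-fold rise. In TGF-β+2APB it was 7.69 (SE 0.21, edgeR FDR 1.59e-05) against DMSO. TGF-β+2APB exceeded TGF-β by 1.55 on the log2 scale (SE 0.15, edgeR FDR 0.0046).

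Wnt7a, which patterns the limb and the female reproductive tract, had 37.3 and 41.3 normalized counts in DMSO, 688 and 535 in TGF-β and 2863 and 2304 in TGF-β+2APB. Every TGF-β library was above every DMSO library, and every TGF-β+2APB library above all others. On the log2 scale the difference from DMSO was 3.96 (SE 0.21, edgeR FDR 0.000127) in TGF-β and 6.03 (SE 0.22, edgeR FDR 2.77e-05) in TGF-β+2APB. TGF-β+2APB differed from TGF-β by 2.08 (SE 0.17, edgeR FDR 0.00372), a 4.22-fold difference.

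Wnt7b, a ligand of branching epithelia that signals through β-catenin, was already abundant without treatment. It had 3320 and 3306 normalized counts in DMSO, 16731 and 14752 in TGF-β and 25409 and 22265 in TGF-β+2APB. The groups did not overlap. Relative to DMSO, the log2 fold change was 2.25 (SE 0.11, edgeR FDR 9.51e-05) in TGF-β and 2.85 (SE 0.11, edgeR FDR 3.06e-05) in TGF-β+2APB. The difference between TGF-β+2APB and TGF-β, 0.60 (SE 0.10, edgeR FDR 0.0161), was not called in some alternatives. Without DMSO replicate 1 and 2 its log2 fold change was still 0.60, with an FDR of 0.06 and 0.0606, and with only the 4 libraries compared the FDR was 0.0578. Without TGF-β+2APB replicate 1 it was 0.47 with an FDR of 0.121, over a range of 5.25e-06 to 0.121 in the 15 alternatives.

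Wnt1, a mammary oncogene that is otherwise a ligand of the developing midbrain, was not detected in DMSO. It had 0 counts in both DMSO libraries, 70.1 and 60.2 normalized counts in TGF-β and 236 and 239 in TGF-β+2APB. Both treated groups were clearly above DMSO, and the TGF-β+2APB libraries were above the TGF-β libraries. Set against a floor of 3 counts per DMSO library, which covers counting error only, and with all counts halved, in case every read was counted 2 times, Wnt1 was at least 10.8-fold higher in TGF-β and at least 39.2-fold higher in TGF-β+2APB. With the counts as deposited, the same floor gives 21.6-fold and 78.4-fold, so the lower values hold either way. The edgeR FDR was 0.000473 and 0.000151. TGF-β+2APB exceeded TGF-β by 1.86 on the log2 scale (SE 0.26, edgeR FDR 0.0155). That call ended with the replicate number as a block (FDR 0.0516), at a log2 fold change of 1.87.

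Wnt11, a ligand that mostly acts without β-catenin, was also close to undetected in DMSO. It had 3.93 and 2.07 normalized counts in DMSO, 93.5 and 62.3 in TGF-β and 119 and 71.0 in TGF-β+2APB. The treated groups lay above DMSO and overlapped each other. The change from DMSO, in log2, was 4.64 (SE 0.54, edgeR FDR 0.00164) in TGF-β and 4.92 (SE 0.54, edgeR FDR 0.000854) in TGF-β+2APB. The treated groups differed by 0.28 (SE 0.41, edgeR FDR 0.667).

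Wnt4 moved the other way. This ligand, which drives side branching of mammary ducts downstream of progesterone, had 3762 and 3709 normalized counts in DMSO, 1182 and 948 in TGF-β and 301 and 515 in TGF-β+2APB. It was the ligand with the highest level per kb in DMSO, and the groups did not overlap. Wnt4 fell by 1.81 on the log2 scale (SE 0.25, edgeR FDR 0.00311) in TGF-β and by 3.19 (SE 0.27, edgeR FDR 0.000328) in TGF-β+2APB. The further difference between the treated groups, -1.39 (SE 0.26, edgeR FDR 0.0203), had an FDR of 0.0636 and 0.0643 without DMSO replicate 1 and 2, over a range of 4.47e-06 to 0.0643.

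The remaining quantified ligands were Wnt5a and Wnt2b. Wnt5a, the best known ligand of the β-catenin-independent branch, had 257 and 269 normalized counts in DMSO, 372 and 392 in TGF-β and 489 and 474 in TGF-β+2APB. The groups lay in that order without overlap, over a narrower range than the other called ligands. Against DMSO the log2 fold change was 0.54 (edgeR FDR 0.0197) in TGF-β and 0.87 (edgeR FDR 0.00248) in TGF-β+2APB, and the first call ended without DMSO replicate 1 (FDR 0.144) or 2 (FDR 0.111), over a range of 0.0071 to 0.144. Wnt2b had 46.8 to 102 normalized counts over the 6 libraries, with overlap between DMSO and TGF-β, and was not called.

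The other 10 ligand genes stayed below the minimum, and no test was read from them. Wnt2 had 29.7 and 29.6 normalized counts in TGF-β+2APB and 1.97 to 5.84 elsewhere. Wnt10b had 19.8 and 21.7 in TGF-β+2APB, 5.84 and 8.30 in TGF-β and 1.97 and 0 in DMSO. Wnt10a had 35.4 and 49.6 in DMSO and 1.97 to 7.79 in the treated libraries. Wnt6 had 25.6 and 22.7 in DMSO and 3.96 to 13.6 in the treated libraries, and Wnt5b ran from 1.97 to 19.5. Wnt3, Wnt3a, Wnt8a, Wnt9b and Wnt16 had at most 2.08 in any library.

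Several ligand genes lie next to each other in the mouse genome, and their levels can be read in pairs. On chromosome 15, Wnt10b (98770712 to 98778150, minus strand, GRCm38) and Wnt1 (98789857 to 98793837, plus strand) are 11.7 kb apart with no coding gene between them, and both had their highest counts in TGF-β+2APB. On chromosome 1, Wnt6 (74771892 to 74785322) and Wnt10a (74791516 to 74804179) are 6.2 kb apart, and both had their highest counts in DMSO. On chromosome 11, Wnt9a (59306928 to 59333552) lies 16.2 kb from Wnt3a, which had no counts in 5 libraries. Wnt9b and Wnt3, 24.3 kb apart on the same chromosome, were both near 0. Reads shared between neighbours were not tested.

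Of the 3 receptors for R-spondins, 2 were called in each comparison with DMSO, Lgr6 higher and Lgr4 lower. Of all tested genes, 41.5% were called in TGF-β and 52.8% in TGF-β+2APB. Lgr6, a receptor for R-spondins known as a marker of epithelial stem cells in skin, had 25.6 and 33.1 normalized counts in DMSO, 5982 and 5976 in TGF-β and 8008 and 6558 in TGF-β+2APB. Its counts were few in DMSO and high in all 4 treated libraries. In log2 terms, the change against DMSO was 7.67 (SE 0.18, edgeR FDR 2.29e-05) in TGF-β, a 204-fold rise, and 7.96 (SE 0.18, edgeR FDR 1.14e-05) in TGF-β+2APB. Between the treated groups it was 0.28 (SE 0.12, edgeR FDR 0.164).

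Lgr4, the receptor of the same family that is widely expressed in epithelia, had 7196 and 7593 normalized counts in DMSO, 2795 and 2785 in TGF-β and 1515 and 1458 in TGF-β+2APB. The replicates were close and the 3 groups well separated. It fell by 1.41 on the log2 scale (SE 0.07, edgeR FDR 0.000103) in TGF-β and by 2.32 (SE 0.07, edgeR FDR 1.87e-05) in TGF-β+2APB. TGF-β+2APB lay below TGF-β by 0.91 on the log2 scale (SE 0.07, edgeR FDR 0.00311). Per kb of exon, Lgr4 had 1257 normalized counts in DMSO and Lgr6 4.28, whereas in TGF-β Lgr4 had 474 and Lgr6 873, and in TGF-β+2APB 253 and 1063. Lgr5, the intestinal stem cell marker, had 13.9 to 54.0 over the 6 libraries, highest in the TGF-β libraries, and was not called against DMSO (log2 fold change 1.31, SE 0.44, edgeR FDR 0.0578 in TGF-β).

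Of the R-spondin ligands, Rspo3 had 23.6 and 22.7 normalized counts in DMSO, 76.0 and 97.5 in TGF-β and 67.3 and 69.1 in TGF-β+2APB. All treated libraries were above both DMSO libraries. On the log2 scale the difference from DMSO was 1.90 (SE 0.29, edgeR FDR 0.00441) in TGF-β and 1.55 (SE 0.29, edgeR FDR 0.00656) in TGF-β+2APB. The latter had an FDR of 0.0519 and 0.0557 without DMSO replicate 1 and 2, over a range of 0.00131 to 0.0557. Rspo1 had 0 counts in the DMSO and TGF-β libraries and 7.92 and 7.89 in TGF-β+2APB, below the minimum.

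The ubiquitin ligases that R-spondins restrain, both themselves known β-catenin targets, were higher in the treated groups. Znrf3 had 1445 and 1562 normalized counts in DMSO, 2597 and 2754 in TGF-β and 3275 and 3015 in TGF-β+2APB. The DMSO libraries were lowest, and the treated groups were next to each other. Relative to DMSO, the log2 fold change was 0.83 (SE 0.09, edgeR FDR 0.00107) in TGF-β and 1.06 (SE 0.09, edgeR FDR 0.00028) in TGF-β+2APB. Rnf43 had 511 and 547 in DMSO and 668 to 849 in the treated libraries, with log2 fold changes of 0.52 (edgeR FDR 0.0315) in TGF-β and 0.56 (edgeR FDR 0.0197) in TGF-β+2APB. These calls were not stable. For TGF-β the FDR was 0.18 and 0.12 without DMSO replicate 1 and 2, 0.0517 without TGF-β replicate 1 and 0.0595 and 0.0565 without TGF-β+2APB replicate 1 and 2, over a range of 0.00456 to 0.18. For TGF-β+2APB it was 0.122 and 0.0821 without the DMSO replicates and 0.0862 and 0.0767 without those of TGF-β+2APB, over a range of 0.00355 to 0.122.

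The Frizzled receptors changed in both directions. Of 10 Frizzled genes, 9 were quantified. TGF-β against DMSO called 7 of them, 5 higher and 2 lower, and TGF-β+2APB against DMSO called 7, 4 higher and 3 lower. Between the treated groups 1 was higher and 1 lower. These are 77.8%, 77.8% and 22.2% of the 9, beside 41.5%, 52.8% and 17.5% of all tested genes, and Fzd9 passed the minimum only through treated libraries. The normalized counts of all 10 summed to 22896 and 23292 in DMSO, 22598 and 21082 in TGF-β and 23570 and 23143 in TGF-β+2APB, so the DMSO and TGF-β+2APB libraries overlapped and both TGF-β libraries lay below them. Per kb of exon the sums were 4295 and 4380 in DMSO, 4910 and 4517 in TGF-β and 5363 and 5238 in TGF-β+2APB, lowest in DMSO.

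Fzd5 had 9945 and 9884 normalized counts in DMSO, 3865 and 3378 in TGF-β and 2279 and 2656 in TGF-β+2APB. It had the highest level per kb of the Frizzled genes in DMSO, and its groups did not overlap. It fell by 1.45 on the log2 scale (SE 0.11, edgeR FDR 0.000374) in TGF-β and by 2.01 (SE 0.11, edgeR FDR 8.51e-05) in TGF-β+2APB. Between the treated groups the difference was -0.55 (SE 0.11, edgeR FDR 0.0235). That call ended without DMSO replicate 1 (FDR 0.077) or 2 (FDR 0.0775) and without TGF-β+2APB replicate 1 (FDR 0.131) or 2 (FDR 0.0502), over a range of 0.000266 to 0.131.

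Fzd2 and Fzd1 rose. Fzd2, a receptor linked to Wnt5a and cell movement, had 2730 and 2851 normalized counts in DMSO, 6377 and 5692 in TGF-β and 9703 and 9318 in TGF-β+2APB. The 3 groups were separate. The change from DMSO, in log2, was 1.11 (SE 0.09, edgeR FDR 0.000404) in TGF-β and 1.77 (SE 0.09, edgeR FDR 6.32e-05) in TGF-β+2APB. TGF-β+2APB exceeded TGF-β by 0.66 (SE 0.09, edgeR FDR 0.00839), a call that ended without TGF-β+2APB replicate 1 (FDR 0.0657), over a range of 1.96e-09 to 0.0657. Fzd1 had 924 and 948 in DMSO, 3074 and 2926 in TGF-β and 3281 and 3171 in TGF-β+2APB. The DMSO libraries were low and the 4 treated libraries similar. Against DMSO the log2 fold change was 1.68 (SE 0.07, edgeR FDR 7.94e-05) in TGF-β and 1.79 (SE 0.07, edgeR FDR 3.94e-05) in TGF-β+2APB, and between the treated groups it was 0.11 (SE 0.07, edgeR FDR 0.352). Per kb of exon, Fzd5 had 1434 normalized counts in DMSO and Fzd2 762. In TGF-β+2APB, Fzd2 had 2596 and Fzd5 357.

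Fzd9 was low throughout. It had 13.8 and 8.26 normalized counts in DMSO, 54.5 and 37.4 in TGF-β and 49.5 and 27.6 in TGF-β+2APB. The treated libraries were above DMSO and overlapped each other. In log2 terms, the change against DMSO was 2.05 (SE 0.50, edgeR FDR 0.0214) in TGF-β and 1.79 (SE 0.50, edgeR FDR 0.0262) in TGF-β+2APB. For TGF-β the FDR was 0.0711 and 0.132 without DMSO replicate 1 and 2 and 0.056 without TGF-β replicate 1, over a range of 0.0112 to 0.132. For TGF-β+2APB it was 0.0682 and 0.147 without the DMSO replicates and 0.122 without TGF-β+2APB replicate 1, over a range of 0.0191 to 0.147.

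The other Frizzled genes moved less. Fzd7 had 5411 and 5611 normalized counts in DMSO, 4465 and 3810 in TGF-β and 3366 and 3463 in TGF-β+2APB, with log2 fold changes against DMSO of -0.41 (edgeR FDR 0.0174) and -0.69 (edgeR FDR 0.00193). Fzd8 had 366 and 328 in DMSO and 531 to 663 in the treated libraries, with 0.68 (edgeR FDR 0.0105) and 0.84 (edgeR FDR 0.00353). Fzd6 had 2427 and 2492 in DMSO and 3134 and 3250 in TGF-β, with 0.38 (edgeR FDR 0.0104) in TGF-β, and 2904 and 2675 in TGF-β+2APB, where it was not called (edgeR FDR 0.0878). In these 3 genes every treated library lay on the same side of DMSO. Fzd4 had 533 to 566 in the DMSO and TGF-β libraries, which overlapped, and 408 and 300 in TGF-β+2APB, with -0.63 (edgeR FDR 0.0246) against DMSO. Fzd3 had 495 to 998 and was not called, and Fzd10, below the minimum, had at most 18.7.

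Several of these smaller calls ended when 1 library was left out, whichever DMSO replicate that was, with fold changes in the same direction. In TGF-β, without DMSO replicate 1 and 2, the FDR was 0.0919 and 0.118 for Fzd7 (range over alternatives 0.00141 to 0.118), 0.0553 and 0.09 for Fzd8 (range 0.000459 to 0.09) and 0.105 and 0.0806 for Fzd6 (range 0.00107 to 0.105). The log2 fold changes were then -0.44 and -0.39 for Fzd7, 0.76 and 0.61 for Fzd8 and 0.36 and 0.40 for Fzd6. The FDR of Fzd7 was also 0.0604 and 0.059 without TGF-β+2APB replicate 1 and 2. For Fzd4 in TGF-β+2APB the FDR was 0.129 and 0.0938 without the DMSO replicates and 0.0973 without TGF-β+2APB replicate 2 (range 0.0113 to 0.129), at log2 fold changes of -0.59, -0.68 and -0.41.

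Of the quantified receptors and co-receptors, Lrp5 had the highest level per kb of exon in DMSO, 2574, and Lrp6 had 1143. Lrp5 had 25614 and 24526 normalized counts in DMSO, 22031 and 17768 in TGF-β and 14403 and 16171 in TGF-β+2APB. It was lowest in TGF-β+2APB, at a log2 fold change against DMSO of -0.71 (edgeR FDR 0.00463), and was not called in TGF-β (edgeR FDR 0.077). Lrp6 had 15759 and 15499 in DMSO, 9562 and 12291 in TGF-β and 12825 and 12163 in TGF-β+2APB. The DMSO libraries were highest and the treated groups overlapped. Its log2 fold change was -0.52 (edgeR FDR 0.0223) in TGF-β, a call that ended without DMSO replicate 1 (FDR 0.122) or 2 (FDR 0.106), over a range of 0.000674 to 0.122.

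Ror1, a receptor tyrosine kinase that takes Wnt5a as a ligand, had 765 and 727 normalized counts in DMSO, 545 and 658 in TGF-β and 1030 and 939 in TGF-β+2APB. It was highest in TGF-β+2APB and lowest in TGF-β, without overlap. TGF-β+2APB exceeded TGF-β by 0.71 on the log2 scale (edgeR FDR 0.0188) and DMSO by 0.40 (edgeR FDR 0.0418), while TGF-β was not called against DMSO (edgeR FDR 0.104). The call against TGF-β ended without DMSO replicate 1 (FDR 0.0647) or 2 (FDR 0.0655) and without TGF-β+2APB replicate 1 (FDR 0.103), over a range of 0.00018 to 0.103. The call against DMSO ended without DMSO replicate 1 or 2, at log2 fold changes of 0.44 and 0.36. It also ended without TGF-β+2APB replicate 1 or 2, at 0.33 and 0.49. Further settings that ended it were library size scaling (FDR 0.0793), the replicate number as a block (FDR 0.0793) and no filter on low counts (FDR 0.0551).

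Secreted antagonists were scarce in every group. Of the 7 SFRP and Dickkopf genes, only Sfrp1 reached the minimum. The other 6, which were Sfrp2, Sfrp4, Sfrp5, Dkk1, Dkk2 and Dkk3, had at most 17.8 normalized counts in any library. All 7 together summed to 62.9 and 59.9 in DMSO, 62.3 and 83.0 in TGF-β and 45.5 and 31.6 in TGF-β+2APB.

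Sfrp1, which binds Wnt proteins outside the cell, had 43.2 and 35.1 normalized counts in DMSO, 39.0 and 37.4 in TGF-β and 13.9 and 5.92 in TGF-β+2APB. The DMSO and TGF-β libraries overlapped and those of TGF-β+2APB were lower. Sfrp1 passed the minimum only through DMSO and TGF-β, so its calls add no support to the counts of lower genes. The log2 fold change of TGF-β+2APB was -1.97 (SE 0.48, edgeR FDR 0.0163) against DMSO and -1.94 (SE 0.48, edgeR FDR 0.0447) against TGF-β, and in TGF-β against DMSO it was -0.04 (SE 0.43, edgeR FDR 0.953). Without TGF-β+2APB replicate 1 the differences grew to -2.71 (FDR 0.013) and -2.69 (FDR 0.0448). The call against DMSO ended without DMSO replicate 1 (FDR 0.0876) or 2 (FDR 0.0577), over a range of 0.0112 to 0.0876. The call against TGF-β ended without DMSO replicate 1 or 2 (FDR 0.111 for each), without TGF-β replicate 1 (FDR 0.0718) or 2 (FDR 0.0513) and without TGF-β+2APB replicate 2 (FDR 0.117), over a range of 0.0281 to 0.117.

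Among the inhibitors inside the cell, Axin2 rose. Axin2 encodes a scaffold of the β-catenin destruction complex and is itself a widely used β-catenin target gene. It had 66.8 and 57.8 normalized counts in DMSO, 806 and 733 in TGF-β and 1091 and 983 in TGF-β+2APB. The treated libraries were all far above DMSO, and TGF-β+2APB lay somewhat above TGF-β. On the log2 scale the difference from DMSO was 3.62 (SE 0.14, edgeR FDR 6.39e-05) in TGF-β, a 12.3-fold rise, and 4.05 (SE 0.15, edgeR FDR 2.77e-05) in TGF-β+2APB. The difference between the treated groups, 0.43 (SE 0.12, edgeR FDR 0.068), was not called.

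Axin1, the constitutive member of the pair, had 6444 to 8218 normalized counts over all libraries and was not called. Per kb of exon, Axin1 had 1709 normalized counts in DMSO and Axin2 11.3, and in TGF-β+2APB Axin1 had 1811 and Axin2 188. Nkd2, an inhibitor that binds Dishevelled, had 21.6 to 44.8 and was not called, and Nkd1 stayed at or below 7.92.

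The TCF/LEF factors, which carry β-catenin to DNA, moved in different directions. All 4 were quantified and called in both comparisons with DMSO, 3 higher and 1 lower, where 41.5% and 52.8% of all tested genes were called. Lef1 passed the minimum only through treated libraries, so its call adds no support to that count. It had 3.93 and 0 normalized counts in DMSO, 95.4 and 89.2 in TGF-β and 85.1 and 90.8 in TGF-β+2APB. It was close to undetected in DMSO and at a similar level in the 4 treated libraries. The fitted log2 fold change against DMSO was 5.44 (SE 0.81, edgeR FDR 0.00391) in TGF-β and 5.37 (SE 0.81, edgeR FDR 0.00283) in TGF-β+2APB. Its size depends on the 4 counts of DMSO replicate 1. Without that library Lef1 had 0 counts in DMSO, so no log2 fold change is given, and against a floor of 3 counts with all counts halved it was at least 14.9-fold higher in TGF-β and 14.2-fold in TGF-β+2APB. Without DMSO replicate 2 the log2 fold changes were 4.51 and 4.44.

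Tcf7, which encodes TCF1, had 94.3 and 103 normalized counts in DMSO, 493 and 484 in TGF-β and 873 and 673 in TGF-β+2APB. The groups did not overlap. Relative to DMSO, the log2 fold change was 2.30 (SE 0.18, edgeR FDR 0.000381) in TGF-β and 2.97 (SE 0.18, edgeR FDR 0.000108) in TGF-β+2APB. TGF-β+2APB exceeded TGF-β by 0.66 (SE 0.16, edgeR FDR 0.0444), and this call ended without any 1 of 5 libraries. The FDR was 0.106 and 0.107 without DMSO replicate 1 and 2, 0.0759 and 0.0635 without TGF-β replicate 1 and 2 and 0.228 without TGF-β+2APB replicate 1, over a range of 0.00982 to 0.228.

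Tcf7l2, which encodes TCF4, was the most abundant of the 4 and fell. It had 8011 and 8642 normalized counts in DMSO, 4718 and 4794 in TGF-β and 2716 and 2944 in TGF-β+2APB. The groups were well apart. The change from DMSO, in log2, was -0.81 (SE 0.08, edgeR FDR 0.000952) in TGF-β and -1.56 (SE 0.08, edgeR FDR 7.26e-05) in TGF-β+2APB, and TGF-β+2APB lay below TGF-β by 0.75 (SE 0.08, edgeR FDR 0.00556). Per kb of exon, Tcf7l2 had 949 normalized counts in DMSO and Tcf7 37.6, whereas in TGF-β+2APB Tcf7l2 had 323 and Tcf7 294.

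Tcf7l1, which encodes the mostly repressing factor TCF3, had 348 and 353 normalized counts in DMSO, 491 and 450 in TGF-β and 641 and 570 in TGF-β+2APB. The groups lay in that order without overlap. Against DMSO the log2 fold change was 0.43 (edgeR FDR 0.0423) in TGF-β and 0.79 (edgeR FDR 0.00359) in TGF-β+2APB. The call in TGF-β ended without DMSO replicate 1 (FDR 0.206) or 2 (FDR 0.184), without TGF-β replicate 1 (FDR 0.0976), without TGF-β+2APB replicate 1 (FDR 0.0605) or 2 (FDR 0.0562) and without the filter on low counts (FDR 0.0562), over a range of 0.0365 to 0.206.

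Other genes of the pathway were taken from 6 lists of 65 genes in all, of which 52 were tested. TGF-β against DMSO called 28 of them, 18 higher and 10 lower, with a median log2 fold change of 0.18. TGF-β+2APB against DMSO called 34, 23 higher and 11 lower, with a median of 0.22. The direct comparison called 12, 4 higher and 8 lower, with a median of 0.03. These are 53.8%, 65.4% and 23.1% of the tested list genes, beside 41.5%, 52.8% and 17.5% of all tested genes. Leaving out DMSO replicate 1 or 2 brought the first count to 17 and 18. The third count was 5 without either DMSO replicate, 21 without TGF-β replicate 2 and 3 and 6 without TGF-β+2APB replicate 1 and 2.

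Genes for the release of Wnt proteins were higher in both treated groups. Porcn, the acyltransferase that attaches the lipid, had 3129 and 3134 normalized counts in DMSO, 7408 and 6933 in TGF-β and 9917 and 9332 in TGF-β+2APB. Wls, the carrier to the cell surface, had 7593 and 7485 in DMSO, 11719 and 12312 in TGF-β and 13874 and 12653 in TGF-β+2APB. For both genes every treated library was above DMSO. In log2 terms, the change against DMSO was 1.20 (edgeR FDR 0.000229) in TGF-β and 1.62 (edgeR FDR 5.83e-05) in TGF-β+2APB for Porcn. For Wls it was 0.67 (edgeR FDR 0.00164) and 0.82 (edgeR FDR 0.000522). Notum, the extracellular enzyme that removes the lipid, had at most 6.20 in any library.

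Of 11 other extracellular modulators, 5 were tested and 4 were higher in each treated group than in DMSO, where 21.8% of all tested genes were higher in TGF-β and 25.6% in TGF-β+2APB. All 4 encode proteins known to restrain Wnt signalling. Kremen2, the other tested gene of the list, was not called against DMSO. Its log2 fold change was 0.26 (edgeR FDR 0.573) in TGF-β and -0.51 (edgeR FDR 0.267) in TGF-β+2APB. Tpbg, a membrane protein that diverts Wnt signals from β-catenin, had 1067 and 1085 normalized counts in DMSO, 4019 and 3704 in TGF-β and 6842 and 5818 in TGF-β+2APB. Trabd2b, a protease that cleaves Wnt proteins, had 334 and 426 in DMSO, 1983 and 1818 in TGF-β and 2073 and 2085 in TGF-β+2APB. Kremen1, a receptor of Dickkopf proteins, had 2038 and 2049 in DMSO, 4075 and 3959 in TGF-β and 3688 and 3273 in TGF-β+2APB. These 3 genes had all treated libraries above DMSO. Igfbp4, a secreted protein that can bind Frizzled and LRP6, had 1834 and 1826 in DMSO, 13271 and 9820 in TGF-β and 3811 and 4682 in TGF-β+2APB. It was highest in TGF-β, and TGF-β+2APB lay below TGF-β by 1.44 on the log2 scale (edgeR FDR 0.00704). Its log2 fold change in TGF-β against DMSO was 2.66 (edgeR FDR 0.000266), and in TGF-β+2APB against DMSO it was 1.21 (edgeR FDR 0.00223). Wif1, Frzb, Sost and Sostdc1 had at most 3.93.

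Of the 15 genes for β-catenin and its destruction complex, 4 were called in TGF-β, 2 higher and 2 lower, and 6 in TGF-β+2APB, 4 higher and 2 lower. These shares of 26.7% and 40.0% lie below the 41.5% and 52.8% of all tested genes. Between the treated groups edgeR called 0, beside 17.5% of all tested genes. Of the 15, 3 had an unadjusted p under 0.05 there and DESeq2 called 2. Ctnnb1, which encodes β-catenin itself, had 410222 and 401386 normalized counts in DMSO, 244236 and 217777 in TGF-β and 199792 and 201649 in TGF-β+2APB. Its RNA was lower in all 4 treated libraries. On the log2 scale the difference from DMSO was -0.81 (edgeR FDR 0.0007) in TGF-β and -1.02 (edgeR FDR 0.000197) in TGF-β+2APB. Dvl1, a Dishevelled protein that relays the receptor signal, rose by 0.57 on the log2 scale (edgeR FDR 0.00167) in TGF-β and 0.72 (edgeR FDR 0.000478) in TGF-β+2APB. Csnk1e, a kinase of the pathway, had 8821 and 8595 in DMSO, 11522 and 12115 in TGF-β and 14708 and 13766 in TGF-β+2APB, and it was higher in TGF-β+2APB than in DMSO by 0.71 on the log2 scale (edgeR FDR 0.000692). In TGF-β its value was 0.44 (edgeR FDR 0.00574), a call that ended without DMSO replicate 1 (FDR 0.0607) or 2 (FDR 0.0725), over a range of 3.7e-06 to 0.0725. Dvl2, a further Dishevelled gene, had 3514 and 3285 in DMSO and 2285 to 2679 in the treated libraries. It fell by 0.46 on the log2 scale (edgeR FDR 0.0129) in TGF-β, where the FDR was 0.107 and 0.0617 without DMSO replicate 1 and 2, over a range of 0.000572 to 0.107. In TGF-β+2APB it fell by 0.38 (edgeR FDR 0.0197), where the FDR was 0.135 and 0.0732 without the DMSO replicates and 0.133 and 0.0962 without those of TGF-β+2APB, over a range of 0.00185 to 0.135.

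Of the 10 nuclear partners of β-catenin and TCF, 5 were called in TGF-β and 6 in TGF-β+2APB, where 41.5% and 52.8% of all genes were called. Tle2 and Tle3 encode Groucho co-repressors of TCF factors. Tle2 had 3176 and 3215 normalized counts in DMSO, 2026 and 2131 in TGF-β and 455 and 621 in TGF-β+2APB. It was lowest in TGF-β+2APB, at -2.57 on the log2 scale (edgeR FDR 0.000113) against DMSO and -1.95 (edgeR FDR 0.00326) against TGF-β. Tle3 fell by 1.17 on the log2 scale (edgeR FDR 0.000766) in TGF-β+2APB against DMSO. Tle4, of the same family, rose by 0.72 (edgeR FDR 0.00302) in TGF-β and 0.62 (edgeR FDR 0.00375) in TGF-β+2APB, and Bcl9l, a co-activator of β-catenin, fell by 0.75 (edgeR FDR 0.000754) in TGF-β+2APB.

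Among 14 planar polarity genes and other receptors, 13 were tested, and 6 were called in TGF-β (46.2%, beside 41.5% of all genes) and 10 in TGF-β+2APB (76.9%, beside 52.8%). Prickle2, a cytoplasmic polarity protein, had 5.90 and 10.3 normalized counts in DMSO, 64.3 and 83.0 in TGF-β and 170 and 150 in TGF-β+2APB. It had a mean below 20 in DMSO and passed the minimum only through treated libraries, so it adds no support to the count of its list. Its groups did not overlap, and the log2 fold change against DMSO was 3.17 (edgeR FDR 0.00185) in TGF-β and 4.29 (edgeR FDR 0.00043) in TGF-β+2APB. Prickle1, of the same family, had 936 and 948 in DMSO, 1965 and 1749 in TGF-β and 1243 and 1326 in TGF-β+2APB. It was highest in TGF-β, where its log2 fold change was 0.98 (edgeR FDR 0.000874). Celsr2, an atypical cadherin, had 100 and 124 in DMSO and 21.8 and 21.7 in TGF-β+2APB, with -2.36 (edgeR FDR 0.00135). Reck, a co-receptor for Wnt7a and Wnt7b, had 212 and 258 in DMSO, 199 and 156 in TGF-β and 77.2 and 138 in TGF-β+2APB, where it was lower than in DMSO by 1.13 on the log2 scale (edgeR FDR 0.0337). That call ended without DMSO replicate 1 (FDR 0.0876) or 2 (FDR 0.16) and without TGF-β+2APB replicate 1 (FDR 0.0887), over a range of 0.00967 to 0.16.

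The list of β-catenin target genes had 7 of 12 genes tested. All 7 were called in TGF-β, 4 higher and 3 lower, and 6 in TGF-β+2APB, 4 higher and 2 lower, where 41.5% and 52.8% of all tested genes were called. Ccnd1, which encodes cyclin D1, had 11917 and 13099 normalized counts in DMSO, 65323 and 60491 in TGF-β and 65195 and 62747 in TGF-β+2APB. Apcdd1, a membrane inhibitor of Wnt signalling, had 161 and 196 in DMSO, 493 and 457 in TGF-β and 376 and 363 in TGF-β+2APB. Myc had 5690 and 5640 in DMSO, 13096 and 13117 in TGF-β and 14688 and 14505 in TGF-β+2APB. For these 3 genes every treated library was above DMSO. The log2 fold change in TGF-β was 2.33 (edgeR FDR 5.09e-05) for Ccnd1, 1.41 (edgeR FDR 0.00151) for Apcdd1 and 1.21 (edgeR FDR 0.000131) for Myc. Cdx2, an intestinal homeobox factor, had 658 and 661 in DMSO, 257 and 205 in TGF-β and 41.6 and 57.2 in TGF-β+2APB. Cdx2 went against those 3, with -1.51 (edgeR FDR 0.00292) in TGF-β and -3.74 (edgeR FDR 0.000118) in TGF-β+2APB. Bambi was lower as well, with -1.05 (edgeR FDR 0.0071) in TGF-β and -1.245 (edgeR FDR 0.00274) in TGF-β+2APB. The first of these calls ended without DMSO replicate 1, at -1.04. Jun had -0.35 (edgeR FDR 0.027) in TGF-β, a call that ended with only the 4 libraries compared (FDR 0.0753). It also ended without DMSO replicate 1 or 2, at log2 fold changes of -0.255 and -0.445. Leaving out TGF-β+2APB replicate 1 or 2 ended it too, at -0.328 for each. Jun was also called between the treated groups, and without TGF-β+2APB replicate 1 that call ended, at 0.515. Many genes on this list also respond to other pathways.

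Promoters were searched for TCF/LEF and E-box motifs, the latter being the site that repressors of the Snail and Zeb families bind. RefSeq promoter sequences (GRCm38.p6) matched 36 of the 53 genes, 21 of the 34 quantified, with 45 promoters, and the 250 bases before each start were searched on both strands. The E-box CAGGTG was in 10 of the 45 promoters (22.2%), against 17.2% of all 32851 promoters. The TCF/LEF motif, CTTTGAA or CTTTGAT, was in 3 of 45 (6.67%), against 7.48% of all. Of the called genes, Wnt4 and Fzd5, which fell, held the E-box, and Wnt11, which rose, held the TCF/LEF motif. The E-box was also in Wnt2b, which was not called. Below the minimum, Wnt5b, Nkd1, Wnt3a, Wnt9b, Wnt10b and Sfrp5 held the E-box, and Wnt5b and Dkk1 the TCF/LEF motif. The 100 bases before the start of Fzd5 (chr1:64737751-64737850, minus strand) and of Wnt11 (chr7:98835012-98835111, plus strand) are shown 5′ to 3′ because they set a called gene beside its motif, in capitals, which in Wnt11 is read on the opposite strand.
Fzd5: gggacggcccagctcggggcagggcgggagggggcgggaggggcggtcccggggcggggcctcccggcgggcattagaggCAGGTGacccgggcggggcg
Wnt11: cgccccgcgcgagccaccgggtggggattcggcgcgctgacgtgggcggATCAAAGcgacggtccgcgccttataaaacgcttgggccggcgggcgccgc
The E-box of Fzd5 begins 20 bases and the TCF/LEF motif of Wnt11 51 bases before the start. A match of letters is a description and not evidence of binding.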

How the data were processed

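The authors sequenced RNA of NMuMG cells in 6 libraries, checked reads with FastQC 0.11.2, aligned them with TopHat2 2.0.13 and counted them per gene with featureCounts; the deposited values are raw counts, not scaled. All values are even and the totals per library exceed the mean read number in the methods, for a reason no source gives. The build is mm10 in the submitters' processing notes and a human build in the paper's methods, while the symbols are those of mouse genes. The annotation and strand setting are not given in the sources used here, so reads of overlapping or antisense genes cannot be told apart. The replicates are called biological in the paper, and p-values measure the spread between 2 libraries per group.

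The counts went through edgeR 4.0.16 under R 4.3.3 (TMM factors, mean of at least 20 normalized counts, quasi-likelihood F-test, Benjamini-Hochberg FDR of 0.05 or less). Standard errors were taken from F, as the size of the log2 fold change over its root. The biological coefficient of variation was 17.4%. Of the entries, 25 carry names that a spreadsheet turned into dates; they stayed in the fit and are not named. The symbol rule for Tcf7 was read as a prefix. The members and lists were chosen with earlier results of these data known. All quantified members are named. Full statistics are given for the 19 called in at least 1 comparison with a log2 fold change of 1 or more in size. Of each pathway list, statistics are given for up to 4 called genes with the largest change. Beyond these, Bambi and Jun are given as the other lower β-catenin target genes, and Kremen2 as an uncalled gene. The remaining β-catenin target gene that was higher in TGF-β is not named. Exon lengths and positions came from GENCODE M21 (GRCm38), matched by symbol for all 53 genes.

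Alternatives were RLE or library size scaling, no filter, a filter on the raw mean, DESeq2 1.42.0, the replicate number as a block, halved counts, only the 4 libraries compared and each library left out in turn. A block in which the 2 replicates of TGF-β+2APB trade numbers was added after seeing the data. The procedure was tested on simulated counts. Tables and plots used Python 3.11.15, pandas 2.3.3 and matplotlib 3.10.9.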

Additional observations from a re-analysis of the deposited data

How the results depend on the processing

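For the treated groups compared with each other, the 12 Wnt genes called became 6 with the replicate block and 6 with only the 4 libraries compared, and the 12 genes of the pathway lists became 6 and 5. Leaving out 1 library at a time gave 6 to 16 Wnt genes and 3 to 21 pathway genes there, and 17 to 37 pathway genes for TGF-β against DMSO, in place of 28. For Wnt genes against DMSO it gave 17 to 28 in TGF-β and 21 to 31 in TGF-β+2APB. The lone library of a group was then assumed to vary like the others. Fewer libraries leave fewer degrees of freedom, by construction. The counts moved in both directions, and the causes of these shifts were not tested.

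Some uncalled differences changed sign, each over the libraries left out in turn: Fzd9 between TGF-β+2APB and TGF-β (log2 fold change -0.25; -0.77 to 0.10, with 0.05 without TGF-β replicate 1), Wnt11 in the same comparison (0.28; -0.17 to 0.61) and Sfrp1 in TGF-β against DMSO (-0.04; -0.18 to 0.12). The cause was not tested. No called value of the 19 genes with full statistics changed sign under the 15 alternatives. Of their recomputed called values, 677 stayed at an FDR of 0.05 or less and 43 did not.

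Replicate numbers pair nothing by label. The log2 replicate differences correlated across 13353 genes, which are not independent, at 0.16 for the pair DMSO and TGF-β, at -0.48 for DMSO paired with TGF-β+2APB and at -0.25 for the treated groups. The replicate block gave 23, 26 and 6 Wnt genes in the 3 comparisons. Between the treated groups it ended the calls of Wnt4 (FDR 0.0508), Wnt1 (FDR 0.0516), Ror1 (FDR 0.0522), Fzd5 (FDR 0.0625), Sfrp1 (FDR 0.0722) and Tcf7 (FDR 0.0915). A block in which the TGF-β+2APB replicates trade numbers, chosen after seeing the data, gave 25, 28 and 12. DESeq2 gave 26, 28 and 15. Scaling moved the median of all genes by less than 0.1.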
